A study of Mus musculus with 2 samples.

Results

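Follicular-like B cells were taken as the B cells of the popliteal lymph nodes (PLNs) that held many transcripts of Fcer2a, the gene of CD23 (chr8:3681737-3694175, minus strand, GRCm38), and few or none of Cr2, the gene of the complement receptors CD21 and CD35 (chr1:195136811-195176716, minus strand). The members were chosen cell by cell on raw counts of unique molecular identifiers (UMIs, 1 per captured transcript). A cell had to hold 5000 to 15000 UMIs in all, at least 0.25% of them from Cd79a, Cd79b and Ms4a1, at most 1 UMI from the Cd3d, Cd3e and Cd3g genes of T cells, under 20 UMIs of Jchain, under 4 UMIs of the activation genes Cd83 and Egr3 together and under 4 UMIs of the interferon-induced genes Ifit1, Ifit3, Ifit3b and Isg15 together. Within these gated B cells, the follicular-like cells were those with at least 3 UMIs of Fcer2a and at most 1 UMI of Cr2. The rule found 722 follicular-like cells among 4704 gated B cells and 8201 barcodes of the Advanced library, and 826 among 6361 gated B cells and 8242 barcodes of the Early library, so 1548 of 16443 barcodes in all.

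Both libraries came from male TNF-Tg mice on the C57BL/6 background, which overexpress TNF and develop inflammatory-erosive arthritis, and no library of wild-type mice was used here. The Advanced library pooled 6 PLNs from 3 mice older than 8 months, and the Early library pooled 6 PLNs from 3 mice of 5 to 6 months. The nodes were digested and live nucleated cells, positive for Hoechst and negative for Sytox Green, were sorted with no selection for a lineage and profiled by 10x Genomics 3′ single-cell RNA sequencing. Stage, age, mice and library are the same split and cannot be told apart, and with 1 pooled library per stage there is no replicate and no test, so each interval given is a 95% interval for counting error alone.

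Recirculating follicular B cells carry surface IgD and CD23, enter lymph nodes through high endothelial venules with the help of CCR7, and reside in the follicles. Marginal zone B cells of the mouse carry high CD21 and CD1d with little CD23, and their development requires Notch2, which acts through the DNA-binding protein RBPJ and induces genes such as Hes1 and Dtx1. In nodes of arthritic TNF-Tg mice, B cells that express both CD23 and high CD21 accumulate and are known as B cells in inflamed nodes, so the low Cr2 count is what sets the present cells apart from them within the CD23-positive compartment.

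Hes1 and Dtx1, which Notch induces, were among the genes lower in follicular-like cells, and promoters were searched for the RBPJ-type motif GTGGGAA. A part of Notch in the differences was not tested. The promoters of the gate gene Cr2 and of the lower genes Cd9, a tetraspanin of marginal zone and B1 cells, and Ffar2, a receptor for short-chain fatty acids, are shown as examples picked because they hold it. The sequences are from RefSeq on GRCm38.p6, run from 250 bases before to 50 bases after the start of the gene, are read on the minus strand of the genome, on which all 3 genes lie, and have the motif in capitals. They cover chr1:195176670-195176969, chr6:125494711-125495010 and chr7:30823726-30824025. The motif began 221 bases before the start of Cr2, 212 bases before that of Cd9, and 99 bases and 1 base before the Ffar2 start shown.
Cr2: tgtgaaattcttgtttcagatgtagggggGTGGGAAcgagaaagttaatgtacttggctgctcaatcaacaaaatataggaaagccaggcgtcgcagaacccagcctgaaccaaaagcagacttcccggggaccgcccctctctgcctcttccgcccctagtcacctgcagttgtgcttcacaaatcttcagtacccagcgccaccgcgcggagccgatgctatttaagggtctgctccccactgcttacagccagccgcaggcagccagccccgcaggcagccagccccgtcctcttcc
Cd9: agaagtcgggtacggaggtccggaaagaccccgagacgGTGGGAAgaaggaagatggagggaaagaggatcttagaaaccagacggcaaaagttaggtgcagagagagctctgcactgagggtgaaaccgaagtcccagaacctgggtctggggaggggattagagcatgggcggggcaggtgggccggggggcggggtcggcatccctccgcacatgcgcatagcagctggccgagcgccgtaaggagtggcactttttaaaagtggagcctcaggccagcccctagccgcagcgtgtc
Ffar2: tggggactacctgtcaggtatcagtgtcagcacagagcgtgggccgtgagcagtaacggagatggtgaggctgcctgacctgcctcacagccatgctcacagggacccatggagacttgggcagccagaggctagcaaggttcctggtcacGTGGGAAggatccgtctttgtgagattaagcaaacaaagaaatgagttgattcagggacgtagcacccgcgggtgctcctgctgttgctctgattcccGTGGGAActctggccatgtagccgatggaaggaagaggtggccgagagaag
The motif or its reverse complement TTCCCAC was found in a promoter of 7.25% of the 27025 genes in the table. It was in 4 of the 19 genes lower in follicular-like cells that had an entry (Cd9, Ffar2, Gm6377 and Tpst2) and also in 3 of the 12 higher genes that had one (Cd200, Cep89 and Emp3), so it was found among genes of both directions. The Dtx1 promoter had no match and Hes1 was not matched in the table. A match is a stretch of letters and not a measured binding site.

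The Fcer2a and Cr2 counts chose the cells and are given only as a description. Follicular-like cells held a median of 4 Fcer2a UMIs in both libraries, with a highest value of 21 in the Advanced and 27 in the Early library, and 218 Advanced cells (30.2%) and 285 Early cells (34.5%) stood at the minimum of 3. Just outside, 286 Advanced and 385 Early cells held 2 Fcer2a UMIs and at most 1 of Cr2. Cr2 was at 0 in 343 Advanced and 379 Early follicular-like cells and at 1 in the other 379 and 447, while 346 Advanced and 410 Early cells with at least 3 Fcer2a UMIs held 2 UMIs of Cr2 and fell just outside. The counts ran across both limits with no gap.

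**Figure D1:**
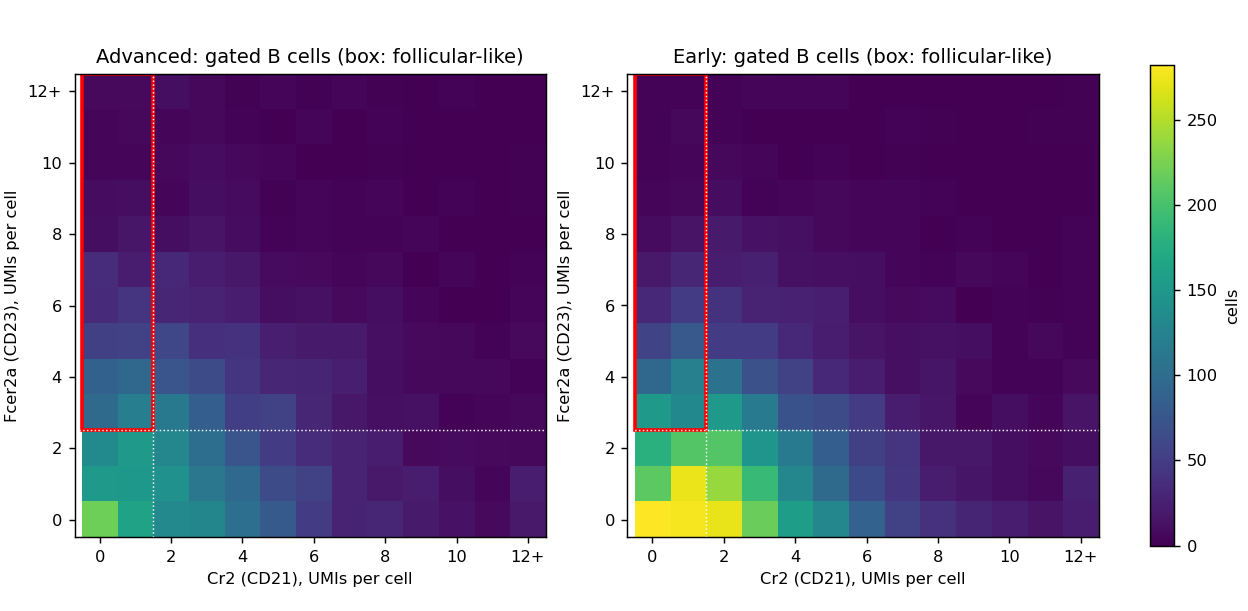
Number of gated B cells (colour) by UMIs of Cr2 (horizontal axis) and of Fcer2a (vertical axis) per cell, with the Advanced library on the left and the Early library on the right. The red box holds the follicular-like cells, 722 in Advanced and 826 in Early, and the counts cross both sides of the box with no gap.

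The remaining gated B cells, 3982 in the Advanced and 5535 in the Early library, are called other gated B cells and fell into the other parts of the same plane. Cells with at least 3 UMIs of Fcer2a and at least 2 of Cr2 (called cells with both) numbered 1354 in Advanced and 1497 in Early, cells with at most 2 of Fcer2a and at least 2 of Cr2 (CD21-only cells) numbered 1657 and 2608, and cells with at most 2 of Fcer2a and at most 1 of Cr2 (cells with neither) numbered 971 and 1430. Follicular-like cells were shallower than other gated B cells, with medians of 6761.5 and 7441.5 UMIs in the Advanced library and 6069 and 6591 UMIs in the Early library. Their medians of 1885 Advanced and 1709.5 Early detected genes were also below the 1997 and 1796 of other gated B cells, and their mitochondrial shares of 5.22% and 5.19% were close to the 5.36% and 5.18% of other gated B cells. The 2 libraries shared 20 barcodes, of which 1 Advanced and 2 Early follicular-like cells carried one, and no barcode was follicular-like in both. No doublets were removed. Scrublet called only 1 Advanced and 2 Early cells in the whole libraries, which does not show that doublets were rare. Of the 538 Advanced and 543 Early cells with the highest Scrublet scores, 26 and 38 were follicular-like, and these cells were left out only as an alternative.

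Follicular-like cells made up 15.3% of gated B cells in Advanced (14.3% to 16.4%) and 13% in Early (12.2% to 13.8%), a ratio of 1.18 (1.07 to 1.31). Over all cells in the UMI window, the shares were 11.3% in Advanced (10.6% to 12.1%) and 11.4% in Early (10.6% to 12.1%), a ratio of 0.999 (0.903 to 1.1), as gated B cells themselves were 73.9% of the Advanced and 87.4% of the Early window. The direction thus followed the denominator. The share also moved with depth: among cells with 5000 to 6000 UMIs, 27.2% of Advanced and 18.1% of Early gated B cells were follicular-like, whereas among cells with 10000 to 15000 UMIs the shares were 11.2% in Advanced and 7.07% in Early. After each cell was thinned to 5000 UMIs, the rule found 736 of 4902 gated cells in Advanced (15.0%) and 821 of 6609 in Early (12.4%), of which 501 and 624 were follicular-like cells of the original rule.

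To check the label, Ighd (chr12:113406604-113416324, minus strand), the heavy chain of IgD and the defining marker that the rule did not use, was read first, as CPM (the UMIs of a gene per 1000000 UMIs of the group). Ighd had 834 CPM in follicular-like cells against 649 CPM in other gated B cells of the Advanced library (ratio 1.28, 1.24 to 1.33), and 876 CPM in follicular-like cells against 648 CPM in other gated B cells of the Early library (ratio 1.35, 1.31 to 1.39). Single follicular-like cells held a median of 5 Ighd UMIs in both libraries and other gated B cells a median of 5 in Advanced and 4 in Early, and Ighd was at 0 in 2.63% of Advanced and 2.66% of Early follicular-like cells, against 6.91% and 6.45% of other gated B cells. With each cell thinned to 5000 UMIs, an Ighd UMI was found in 94.3% of Advanced and 95.5% of Early follicular-like cells, against 14.1% and 9.28% of T cells (cells with at least 5 UMIs of the Cd3 genes and under 0.1% of UMIs from the B cell genes), which should lack it and were deeper, with medians of 10178 and 8929 UMIs. The marker of the label was therefore present in nearly all of the cells of both libraries. Its presence did not set them apart from cells with both, which held a median of 6 Ighd UMIs in each library. Ighd was at 0 in 1.85% of Advanced and 1.54% of Early cells with both, which were also deeper. The genes of germinal centre B cells were sparse, with only 2 of 12 reaching 10 CPM in at least 1 group of each library and neither of them with an interval apart from 1 in the same direction in both.

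RNA of other cell types was present in follicular-like and in other gated B cells. The 15 T cell genes summed to 272 CPM in follicular-like and 237 CPM in other gated B cells of the Advanced library and to 173 and 158 CPM in the same groups of the Early library, with 0 Advanced and 2 Early genes of the list at 0 in follicular-like cells. The 15 myeloid genes summed to 692 CPM in Advanced and 665 CPM in Early follicular-like cells, against 718 and 763 CPM in other gated B cells, and the 12 plasma cell genes to 548 CPM in Advanced and 523 CPM in Early follicular-like cells, against 624 and 647 CPM in other gated B cells. The 8 neutrophil genes summed to 27.3 CPM in Advanced follicular-like cells against 58.3 CPM in Advanced other gated B cells and to 3.49 against 4.65 CPM in Early, with 2 and 6 of them at 0 in follicular-like cells. The part of this RNA in the differences was not tested.

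Next, all genes other than the 15 of the rule were compared between follicular-like and other gated B cells. A gene was counted when it had at least 10 CPM in 1 of the groups of each library and its interval lay wholly above a ratio of 5/4 or wholly below 0.8 in both libraries. A gene that reached 10 CPM in only 1 group of a library could only come out higher in that group. Of 6611 genes, 14 were counted as higher (0.212%) and 28 as lower (0.424%) in follicular-like cells. The higher genes held the migration and quiescence factor Klf2 and the surface proteins Cd55 and Cd200, while the lower genes held Hes1 and 9 genes of the marginal zone list, Dtx1 among them. These differences describe cells chosen on their own UMIs. Of the 14 higher genes, 8 stayed counted when other gated B cells were reweighted to the depth of the follicular-like cells, and 5 stayed counted among cells with 7000 to 11000 UMIs, where Cd55, Cd200, Gadd45g and Ms4a4c were among those no longer counted.

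**Figure D2:**
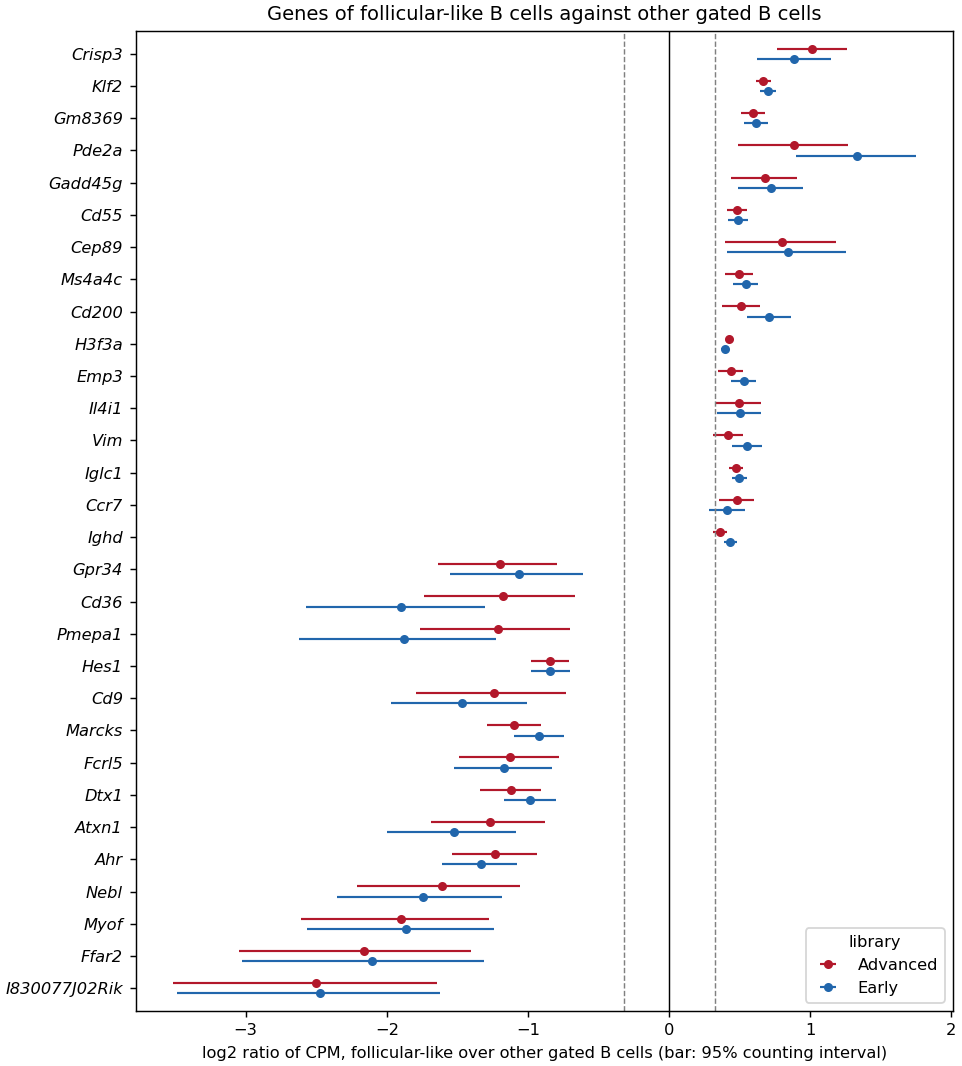
Log2 ratio of follicular-like over other gated B cells (horizontal axis) for the named genes (rows), with points for the Advanced (red) and Early (blue) library, 95% counting intervals and dashed lines at ratios of 5/4 and 0.8. The higher genes include Klf2 at ratios of 1.59 and 1.62 and the lower genes include Hes1 at 0.558 and 0.558 in Advanced and Early, and the points of both libraries lie close together for most genes.

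Klf2 (chr8:72319033-72321656, plus strand), the Krüppel-like factor that keeps lymphocytes quiescent and drives expression of their homing and egress receptors, had 672 CPM in follicular-like cells against 423 CPM in other gated B cells of the Advanced library (ratio 1.59, 1.53 to 1.65), and 579 CPM in follicular-like cells against 357 CPM in other gated B cells of the Early library (ratio 1.62, 1.56 to 1.69). In single cells the median was 3 Klf2 UMIs in follicular-like cells of both libraries, against 2 in Advanced and 1 in Early other gated B cells, and 14.7% of Advanced and 20.5% of Early follicular-like cells held none, against 20.1% and 28.8% of other gated B cells. The ranges overlapped widely, with a 10th to 90th percentile of 0 to 12 in Advanced follicular-like cells and 0 to 8 in Advanced other gated B cells. The groups thus differed in their averages and overlapped cell by cell.

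Among receptors that guide B cells into and within the node, Ccr7, the receptor for the T zone chemokines CCL19 and CCL21, had 127 CPM in follicular-like and 91.1 CPM in other gated B cells of the Advanced library, and 113 and 84.6 CPM in the same groups of the Early library, with ratios of 1.39 (1.28 to 1.52) in Advanced and 1.33 (1.22 to 1.45) in Early, so its interval in Early reached below 5/4 and it was not counted. S1pr4, a receptor for sphingosine-1-phosphate, had ratios of 1.53 (1.35 to 1.72) in Advanced and 1.36 (1.19 to 1.54) in Early. S1pr1, the main egress receptor, was at 1.14 (1.06 to 1.23) in Advanced and 0.986 (0.913 to 1.06) in Early, and Cxcr5, which guides B cells to follicles, was the other way at 0.894 (0.796 to 1.00) in Advanced and 0.832 (0.742 to 0.931) in Early. The list of 16 homing and egress genes thus held 2 counted as higher, among them Klf2, and 0 as lower, with medians of 0.05 on the log2 scale in both libraries, against 0.00 in Advanced and −0.02 in Early over all genes.

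Cd55 (chr1:130439027-130462744, minus strand), the decay-accelerating factor that limits complement on the cell's own surface, had 360.5 CPM in follicular-like cells against 258 CPM in other gated B cells of the Advanced library (ratio 1.40, 1.33 to 1.47), and 340.0 CPM in follicular-like cells against 242 CPM in other gated B cells of the Early library (ratio 1.40, 1.34 to 1.48). Cd200, the ligand of an inhibitory receptor on myeloid cells, had 103 CPM in follicular-like and 72.5 CPM in other gated B cells of the Advanced library, and 77.7 and 47.5 CPM in the same groups of the Early library, with ratios of 1.43 (1.30 to 1.56) in Advanced and 1.64 (1.47 to 1.82) in Early. Both were higher in each library, Cd200 at a lower level and with wider intervals. Bach2, a transcription factor that holds back plasma cell differentiation, had ratios of 1.39 in Advanced and 1.29 in Early and the inhibitory receptor gene Btla 1.26 in Advanced and 1.22 in Early, but neither was counted.

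First in order among the counted higher genes, by the interval end nearest to 1, was Crisp3, a cysteine-rich secretory protein, with 34.2 CPM in follicular-like cells against 16.9 CPM in other gated B cells of the Advanced library (ratio 2.02, 1.70 to 2.39), and 28.3 CPM in follicular-like cells against 15.3 CPM in other gated B cells of the Early library (ratio 1.85, 1.54 to 2.21). Pde2a, a cyclic nucleotide phosphodiesterase, had 13.8 CPM in follicular-like and 7.48 CPM in other gated B cells of the Advanced library, and 11.8 and 4.68 CPM in the same groups of the Early library, with ratios of 1.85 (1.40 to 2.41) in Advanced and 2.51 (1.86 to 3.36) in Early. Both were lowly expressed, and the intervals of Pde2a were correspondingly wide. Gadd45g, a growth arrest and stress gene, had ratios of 1.60 (1.36 to 1.88) in Advanced and 1.65 (1.40 to 1.93) in Early.

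Ms4a4c, a tetraspanning membrane protein of the CD20 family, and the predicted gene Gm8369, which begins near it on chromosome 19, were both higher. Gm8369 had 278 CPM in follicular-like and 184 CPM in other gated B cells of the Advanced library, and 268 and 175 CPM in the same groups of the Early library, and Ms4a4c had 197 CPM in follicular-like and 139.7 CPM in other gated B cells of the Advanced library, and 223 and 153 CPM in the same groups of the Early library, with ratios of 1.51 in Advanced and 1.53 in Early for Gm8369 and 1.41 in Advanced and 1.46 in Early for Ms4a4c. H3f3a, which encodes the replication-independent histone H3.3, was abundant in single cells, with a median of 18 UMIs in Advanced and 17 in Early follicular-like cells, against 15 and 14 in other gated B cells, and ratios of 1.34 (1.32 to 1.37) in Advanced and 1.31 (1.29 to 1.34) in Early. The remaining counted genes were the membrane protein gene Emp3 with ratios of 1.35 in Advanced and 1.44 in Early, the amino acid oxidase gene Il4i1, which IL-4 induces, with 1.41 in Advanced and 1.41 in Early, and the centrosomal protein gene Cep89 with 1.74 in Advanced and 1.79 in Early. Vim, the intermediate filament vimentin, came next at 1.34 (1.24 to 1.44) in Advanced and 1.46 (1.36 to 1.58) in Early and was not counted. When other gated B cells were reweighted to the same depth, Cd200, Cep89, Emp3, H3f3a, Il4i1 and Pde2a were no longer counted.

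Turning to the genes lower in follicular-like cells, Hes1 and Dtx1, 2 genes that Notch induces, were lower in both libraries. Hes1 (chr16:30064384-30067796, plus strand), the transcriptional repressor that Notch induces directly, had 94.5 CPM in follicular-like cells against 169 CPM in other gated B cells of the Advanced library (ratio 0.558, 0.508 to 0.611), and 85.1 CPM in follicular-like cells against 153 CPM in other gated B cells of the Early library (ratio 0.558, 0.506 to 0.613). No Hes1 UMI was seen in 68.6% of Advanced and 69.5% of Early follicular-like cells, against 53.9% and 57.6% of other gated B cells. Dtx1 (chr5:120680202-120711927, minus strand), which encodes the ubiquitin ligase Deltex1, had 35.7 CPM in follicular-like cells against 77.7 CPM in other gated B cells of the Advanced library (ratio 0.459, 0.394 to 0.532), and 48.3 CPM in follicular-like cells against 95.7 CPM in other gated B cells of the Early library (ratio 0.505, 0.444 to 0.573). Notch2 itself was closer to even, at 0.948 (0.847 to 1.06) in Advanced and 0.877 (0.781 to 0.982) in Early. Hes1 and Dtx1 stayed counted as lower under all the gates, depth ranges, weightings and scalings tried, with Hes1 ratios between 0.50 and 0.72 in Advanced and between 0.50 and 0.66 in Early.

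Genes of marginal zone B cells made up 9 of the 28 lower genes. The list of 18 had 14 genes with enough UMIs, of which 9 were counted as lower and 0 as higher, with medians of −0.82 on the log2 scale in Advanced and −0.77 in Early. Only 11 genes of the list reached 10 CPM in follicular-like cells of at least 1 library. Members that passed the minimum through other gated B cells alone, such as Cd9, could only come out lower. The minimum thus fixed part of the count and of the medians in advance. Cr2 and Fcer2a were not in this count, but genes that go with CD21 across B cells are linked to the rule through it, so the count is a description of the gate and not independent of it. Cd9 had 6.16 CPM in follicular-like and 14.6 CPM in other gated B cells of the Advanced library, and 7.17 and 19.8 CPM in the same groups of the Early library, with ratios of 0.423 (0.288 to 0.603) in Advanced and 0.362 (0.255 to 0.499) in Early. Cd36, a scavenger receptor for lipids, had ratios of 0.442 in Advanced and 0.268 in Early, Myof, a membrane-repair ferlin, 0.268 in Advanced and 0.274 in Early, Marcks, a substrate of protein kinase C, 0.468 in Advanced and 0.528 in Early, and Fcrl5, an Fc receptor-like protein of innate-like B cells, 0.458 in Advanced and 0.445 in Early. Plac8, which was abundant in all gated B cells, had 321 CPM in follicular-like and 490.3 CPM in other gated B cells of the Advanced library, and 387 and 563 CPM in the same groups of the Early library, and its ratios were 0.654 (0.622 to 0.688) in Advanced and 0.688 (0.658 to 0.720) in Early. Pik3r4, the regulatory subunit of the class III phosphatidylinositol kinase, and Tm6sf1 completed the 9 with Dtx1, at ratios of 0.544 in Advanced and 0.587 in Early for Pik3r4 and 0.673 in Advanced and 0.699 in Early for Tm6sf1. S1pr3 and Asb2 were in the same direction but stayed under 10 CPM. Cd1d1, the gene of the lipid-presenting molecule CD1d, was at 0.721 (0.570 to 0.901) in Advanced and 0.670 (0.535 to 0.830) in Early, and Mzb1, a chaperone of immunoglobulin assembly, at 0.896 (0.856 to 0.937) in Advanced and 0.818 (0.783 to 0.855) in Early, and neither was counted.

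The lowest Advanced ratios among the counted genes were those of the uncharacterised gene I830077J02Rik, with 2.05 CPM in follicular-like and 11.6 CPM in other gated B cells of the Advanced library, and 2.02 and 11.2 CPM in the same groups of the Early library, and of Ffar2, with 2.61 CPM in follicular-like and 11.7 CPM in other gated B cells of the Advanced library, and 2.39 and 10.3 CPM in the same groups of the Early library. Ahr, the aryl hydrocarbon receptor that senses dietary and microbial ligands, had 18.9 CPM in follicular-like cells against 44.3 CPM in other gated B cells of the Advanced library (ratio 0.426, 0.345 to 0.522), and 23 CPM in follicular-like cells against 58.0 CPM in other gated B cells of the Early library (ratio 0.396, 0.328 to 0.474). Nebl, an actin-binding protein of the nebulin family, had ratios of 0.328 in Advanced and 0.299 in Early, Atxn1, the ataxin 1 gene, 0.415 in Advanced and 0.347 in Early, and Gpr34, a receptor for lysophosphatidylserine, 0.435 in Advanced and 0.478 in Early. Pmepa1, which restrains TGF-beta signalling, had 0.432 in Advanced and 0.271 in Early. Id2, an inhibitor of E proteins, had 0.578 in Advanced and 0.511 in Early, and Pdia4, a disulfide isomerase of the endoplasmic reticulum, 0.652 in Advanced and 0.620 in Early. The other counted lower genes were Rgs10, Rgs18, Ptpn14, Rsu1, Rasgef1b, Tpst2, Trps1, Camkmt and Gm6377, with Advanced ratios between 0.450 and 0.669. Cd86 and Irf4, which rise on activation of B cells, were lower without being counted, at 0.697 in Advanced and 0.699 in Early for the costimulatory ligand Cd86 and 0.704 in Advanced and 0.742 in Early for the transcription factor Irf4.

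Of the 30 gene lists, 8 held a counted gene and 22 held none. The list of 22 follicular B cell genes had 4 counted as higher, among them Klf2, Cd55 and Cd200, and 0 as lower, 11 with intervals above 1 and 1 with intervals below 1 in both libraries, and medians of 0.19 on the log2 scale in Advanced and 0.08 in Early. Over all 6611 genes, 265 had intervals above 1 and 245 below 1 in both libraries. The list of B1 cell genes had 3 of 12 expressed and 1 counted as lower (Ahr). Of 18 genes of B cell identity, 0 were counted, and 0 had intervals above 1 and 4 below 1 in both libraries. Their medians were −0.03 in Advanced and −0.11 in Early, where 16 of 18 had ratios below 1 and 10 had intervals below 1, against 3624 of 6611 genes with ratios below 1 over all genes. Among them, Pax5 was at 0.961 in Advanced and 0.917 in Early and Ebf1 at 0.940 in Advanced and 0.928 in Early. In the list of 12 MHC class II genes, 0 were counted and 6 had intervals above 1 in both libraries at small ratios, such as H2-Aa at 1.05 in Advanced and 1.04 in Early and the HLA-DO homologue H2-Ob, which dampens peptide loading, at 1.2 in Advanced and 1.17 in Early, whereas H2-Eb2 was at 0.828 in Advanced and 0.831 in Early.

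In the antigen receptor genes, IgM did not follow IgD. Ighm had 2244 CPM in follicular-like cells against 2138 CPM in other gated B cells of the Advanced library (ratio 1.05, 1.03 to 1.07), and 1878 CPM in follicular-like cells against 2007 CPM in other gated B cells of the Early library (ratio 0.936, 0.917 to 0.955), so the direction differed between the libraries. Per UMI of Ighm, follicular-like cells held 0.372 UMIs of Ighd in Advanced and 0.466 in Early, against 0.304 and 0.323 in other gated B cells. Cells with both held 0.382 in Advanced and 0.388 in Early, so in Advanced follicular-like cells were not above them. Zfp318, which allows the long transcript that splices to IgD to be made, had ratios of 1.14 (1.04 to 1.24) in Advanced and 1.21 (1.11 to 1.32) in Early. The tables hold 1 count per gene, so membrane and secreted forms are not separated.

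The light chain constant genes were all slightly higher in follicular-like cells. Igkc had ratios of 1.12 (1.11 to 1.14) in Advanced and 1.08 (1.06 to 1.09) in Early, Iglc2 1.2 in Advanced and 1.13 in Early, Iglc3 1.07 in Advanced and 1.08 in Early and Iglc1, which passed the counting rule but was set aside as an immunoglobulin gene, 1.39 (1.34 to 1.44) in Advanced and 1.41 (1.36 to 1.47) in Early. Iglc2 and Iglc3 are near-identical copies and the split of their reads is uncertain. Cells in which lambda was the main light chain were 83 of 722 follicular-like cells in Advanced (11.5%, 9.26% to 14.1%) and 92 of 826 in Early (11.1%), against 10.8% and 9.63% of other gated B cells, ratios of 1.06 (0.829 to 1.35) and 1.16 (0.917 to 1.45), so a difference in lambda usage was not detectable at this depth. Iglc1 was the main chain in 28 Advanced and 30 Early follicular-like cells (3.88% and 3.63%), against 3.31% and 2.58% of other gated B cells. The ratios of these shares were 1.17 (0.749 to 1.77) in Advanced and 1.41 (0.915 to 2.10) in Early, so both intervals included 1. Single follicular-like cells held up to 122 Iglc1 UMIs in Advanced and 140 in Early. The narrow intervals of Iglc1 over UMIs take no account of this clustering in cells.

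Of the switched heavy chain genes, 4 had ratios below 1 in Advanced and 3 in Early. Ighg1 had 8.03 CPM in follicular-like and 14.7 CPM in other gated B cells of the Advanced library, and 0.919 and 3.70 CPM in the same groups of the Early library, and Ighg3 had 8.59 CPM in follicular-like and 12.9 CPM in other gated B cells of the Advanced library, and 9.19 and 10.4 CPM in the same groups of the Early library. Ighg2b had 86.7 CPM in follicular-like cells against 90.8 CPM in other gated B cells of the Advanced library (ratio 0.955, 0.864 to 1.05), and 14.3 CPM in follicular-like cells against 25.2 CPM in other gated B cells of the Early library (ratio 0.568, 0.445 to 0.716). Ighg2c was at ratios of 0.771 (0.628 to 0.940) in Advanced and 1.67 (0.998 to 2.67) in Early, and Igha at 1.30 (0.891 to 1.86) in Advanced and 1.04 (0.766 to 1.38) in Early, with intervals that include 1 for Igha in both libraries. The IgG genes share long stretches, so reads can be split between them.

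The comparison was then repeated against each part of the plane on its own, because other gated B cells mix cells that differ from follicular-like cells on 1 axis or on both. Against CD21-only cells, whose gate differs on both axes, 47 of 6628 genes were counted as higher (0.709%) and 60 as lower (0.905%). Against cells with both, whose gate differs only in Cr2, 4 of 6650 were higher (0.0602%) and 10 were lower (0.15%), and against cells with neither, whose gate differs only in Fcer2a, 4 of 6558 were higher (0.061%) and 23 were lower (0.351%). Of the 14 genes higher than in other gated B cells, 10 had intervals above 1 in both libraries against both neighbouring parts, 3 only against cells with both (Cep89, Pde2a and Iglc1) and 1 only against cells with neither (Il4i1). Of the 28 lower genes, 17 had intervals below 1 against both neighbours, 8 only against cells with both and 3 only against cells with neither (Cd9, Rgs10 and Id2). Against CD21-only cells, all 14 and all 28 had intervals apart from 1 in their direction. The 14 and 28 genes were chosen against the pool of these same parts, so these counts are a description and not independent support.

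**Figure D3:**
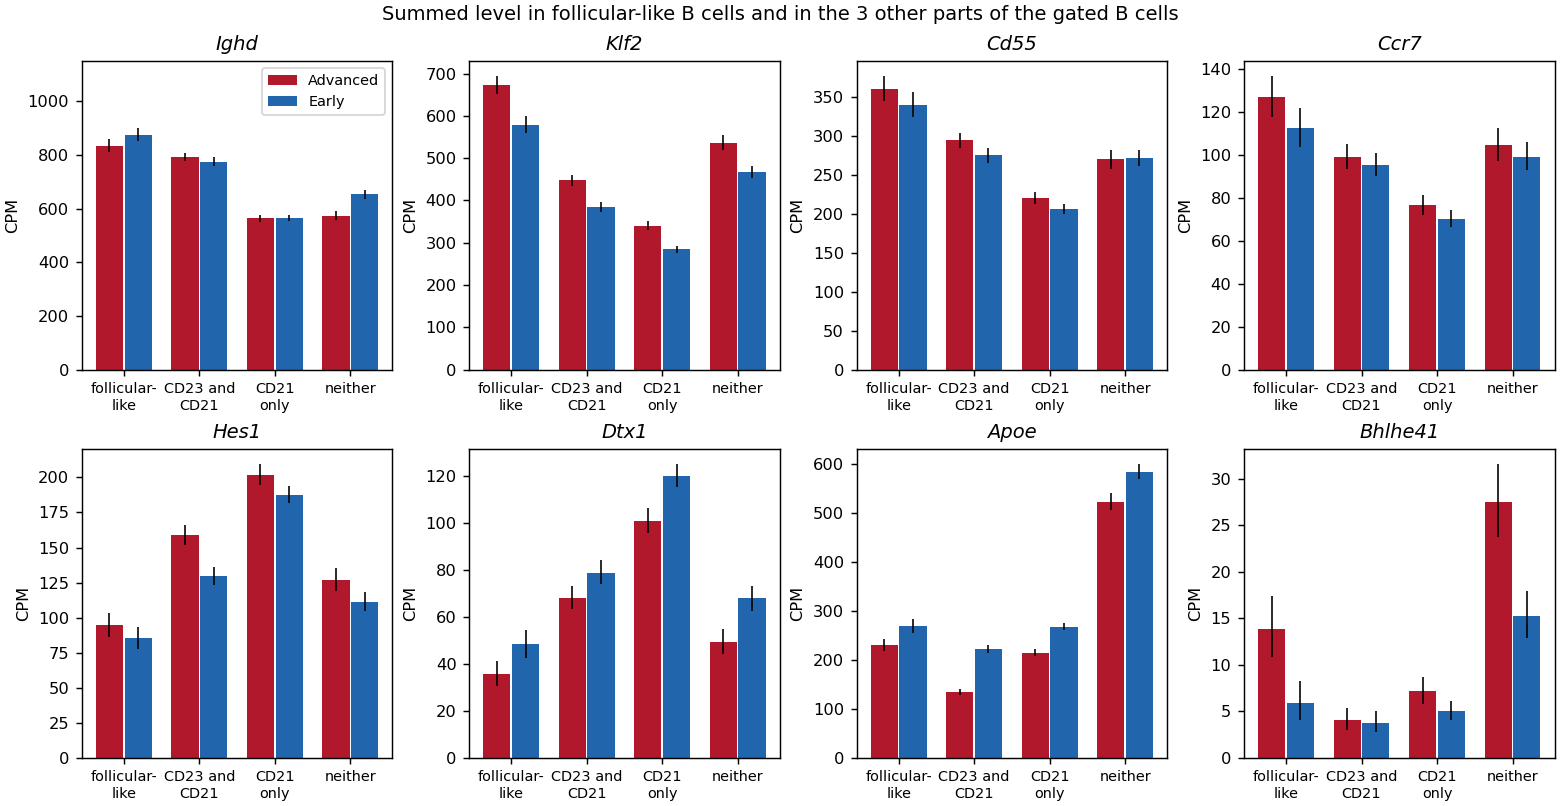
CPM (vertical axis, bars from 0 with 95% counting intervals) of Ighd, Klf2, Cd55, Ccr7, Hes1, Dtx1, Apoe and Bhlhe41 in follicular-like cells and the other 3 parts of the Fcer2a and Cr2 plane, with the Advanced library left of the Early library. Klf2 is 672 CPM in Advanced follicular-like cells and 341 CPM in Advanced CD21-only cells, while Hes1 and Dtx1 run the other way and Apoe and Bhlhe41 are highest in cells with neither.

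Along the Cr2 axis, cells with both differed from follicular-like cells in Klf2, Hes1 and Dtx1 and hardly in Ighd. Klf2 had 672 CPM in Advanced follicular-like cells against 447 CPM in Advanced cells with both (ratio 1.5, 1.44 to 1.57), and 579 CPM in Early follicular-like cells against 384 CPM in Early cells with both (ratio 1.51, 1.44 to 1.58), and Pde2a, Gm8369 and Iglc1 were the other 3 genes counted as higher. Hes1 had 94.5 CPM in Advanced follicular-like cells against 159 CPM in Advanced cells with both (ratio 0.596, 0.539 to 0.658), and 85.1 CPM in Early follicular-like cells against 129.7 CPM in Early cells with both (ratio 0.656, 0.590 to 0.729), and Dtx1 had ratios of 0.523 (0.444 to 0.613) in Advanced and 0.613 (0.532 to 0.703) in Early. Ighd was at 1.05 (1.02 to 1.09) in Advanced and 1.13 (1.09 to 1.17) in Early. The other lower genes in this comparison were Cd36, Rasgef1b, Pdia4, Tm6sf1, Pik3r4, Ahr, Atxn1 and Lyz2, the lysozyme gene of myeloid cells.

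Along the Fcer2a axis, Ighd set follicular-like cells apart. Ighd had 834 CPM in Advanced follicular-like cells against 574 CPM in Advanced cells with neither (ratio 1.45, 1.39 to 1.52), and 876 CPM in Early follicular-like cells against 653 CPM in Early cells with neither (ratio 1.34, 1.29 to 1.39), Crisp3 had ratios of 2.29 (1.79 to 2.93) in Advanced and 1.83 (1.45 to 2.31) in Early and Cd200 of 1.43 (1.27 to 1.62) in Advanced and 1.48 (1.29 to 1.69) in Early, and these were among the 4 genes counted as higher than in cells with neither. Klf2 was less apart on this axis, at 1.253 (1.2 to 1.31) in Advanced and 1.24 (1.18 to 1.30) in Early, and so was Hes1, at 0.745 (0.667 to 0.832) in Advanced and 0.764 (0.683 to 0.853) in Early. The 23 lower genes held Apoe, the apolipoprotein E gene, with 229.9 CPM in Advanced follicular-like cells against 523 CPM in Advanced cells with neither (ratio 0.439, 0.412 to 0.469), and 269 CPM in Early follicular-like cells against 585 CPM in Early cells with neither (ratio 0.459, 0.433 to 0.487), and Bhlhe41, a transcription factor of B1 cells, with ratios of 0.503 in Advanced and 0.385 in Early. They also held the proliferation genes Mki67, Top2a and Stmn1, with Mki67 at 5.04 CPM in follicular-like and 16.9 CPM in cells with neither of the Advanced library, and 0.919 and 12.2 CPM in the same groups of the Early library. Mki67 passed the minimum of 10 CPM through cells with neither alone, so it could only come out lower. Follicular-like cells thus held Apoe, Bhlhe41 and these proliferation genes at lower levels than cells with neither. Apoe was the other way against cells with both, at 1.71 (1.59 to 1.85) in Advanced and 1.21 (1.13 to 1.29) in Early.

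Against CD21-only cells the differences of both axes came together. Klf2 had ratios of 1.97 (1.89 to 2.06) in Advanced and 2.04 (1.95 to 2.13) in Early, Ccr7 1.66 in Advanced and 1.60 in Early, Cd55 1.64 in Advanced and 1.65 in Early, Ighd 1.48 in Advanced and 1.55 in Early and Crisp3 2.60 in Advanced and 2.70 in Early. Lower genes included Hes1 at 0.468 in Advanced and 0.453 in Early, Dtx1 at 0.353 in Advanced and 0.402 in Early and Cd9 at 0.305 in Advanced and 0.277 in Early. The marginal zone list had medians of −1.05 in Advanced and −1.02 in Early on the log2 scale in this comparison, −0.50 and −0.53 against cells with both and −0.47 and −0.40 against cells with neither. The follicular list had 0.30 and 0.11 against CD21-only cells, 0.06 and −0.01 against cells with both and 0.25 and 0.16 against cells with neither.

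**Figure D4:**
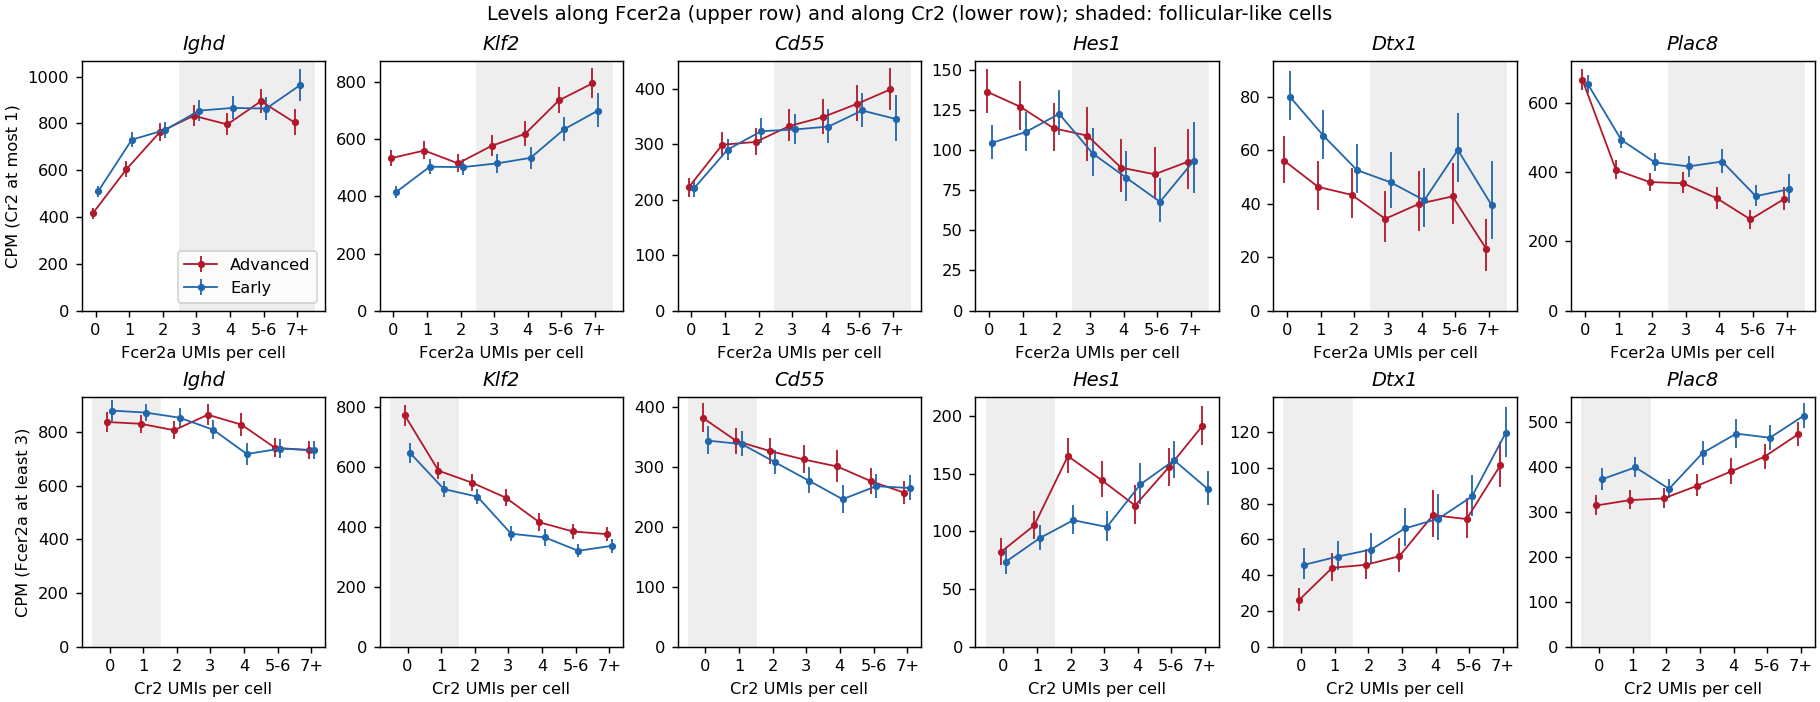
CPM (vertical axis, 95% counting intervals) of Ighd, Klf2, Cd55, Hes1, Dtx1 and Plac8 against Fcer2a UMIs per cell among cells with at most 1 Cr2 UMI (upper row) and against Cr2 UMIs per cell among cells with at least 3 Fcer2a UMIs (lower row), with Advanced in red and Early in blue. The shaded range holds the follicular-like cells, and most curves cross its edges without a step, as for Klf2 along Cr2, while Hes1 of Advanced cells is at 105 CPM with 1 and 165 CPM with 2 Cr2 UMIs.

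Finer bins within the plane showed slopes that crossed the limits of the gate. Among cells with at most 1 Cr2 UMI, Ighd of Advanced cells stood at 416, 604, 764, 833, 796, 895 and 804 CPM with 0, 1, 2, 3, 4, 5 to 6 and 7 or more Fcer2a UMIs, and Ighd of Early cells at 510.2, 731, 772, 855, 866, 863 and 963 CPM over the same bins. Most of the difference therefore lay between 0 and 2 UMIs, below the gate, and cells with 2 Fcer2a UMIs, outside the gate, were close to those with 3. Plac8 ran the other way between the lowest and highest Fcer2a bins, from 666 to 322 CPM in Advanced and from 654 to 351 CPM in Early. Klf2 was higher in cells with more Fcer2a inside the gate as well, at 577 CPM with 3 and 796 CPM with 7 or more UMIs in Advanced, and 516 and 700.3 CPM in Early.

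Along Cr2, among cells with at least 3 Fcer2a UMIs, Klf2 of Advanced cells stood at 772, 587, 547, 497, 415, 384 and 376 CPM with 0, 1, 2, 3, 4, 5 to 6 and 7 or more Cr2 UMIs, and Klf2 of Early cells at 646, 526, 500.4, 377, 365, 319.9 and 337 CPM. Follicular-like cells without a Cr2 UMI thus had the highest Klf2 of these bins in both libraries, and those with 1 UMI were between them and the cells outside. Hes1 was at 82.0 and 73.8 CPM in Advanced and Early cells with no Cr2 UMI, against 191 and 137 CPM in those with 7 or more, with 105 CPM just inside and 165 CPM just outside the gate in Advanced, and Dtx1 at 25.9 and 45.8 CPM, against 101 and 119 CPM. Cells with both were deeper than follicular-like cells, with medians of 7793.5 UMIs in Advanced and 7100 UMIs in Early, and the part of depth in these slopes was not tested.

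Finally, follicular-like cells of Advanced mice were compared with those of Early mice. A gene was counted when it had at least 10 CPM in 1 library and its interval lay beyond 1.5-fold. A gene that reached 10 CPM in only 1 library could only come out higher in that library. Of 6855 genes, 25 were counted as higher in Advanced (0.365%) and 1 as lower (0.0146%). The higher genes held transcripts of other cell types (T cells, neutrophils and myeloid cells) and of IgG, together with the stimulus-induced genes Egr1 and Rgs1 and the transcription factor Sox4, whereas Klf2, Ighd, Cd55 and Ccr7 were not among the counted genes. Bhlhe41, the B1 cell factor that was lower than in cells with neither, was also among the genes counted as higher in Advanced. With TMM scaling, the trimmed mean of M-values, 14 of the 25 stayed counted, and Egr1, Il9r, Snrnp25, Sox4 and Stmn1 were among those that did not. Among cells with 7000 to 11000 UMIs 9 of the 25 stayed counted, and 11 did so with the gate applied to thinned cells. The median over all genes was 0.08 on the log2 scale with 66.4% of genes above 1. With TMM scaling the median was −0.03 with 44.1% above 1, so small differences between the stages follow the scaling, and 61.2% were above 1 when ribosomal, mitochondrial and immunoglobulin genes were dropped from the totals.

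**Figure D5:**
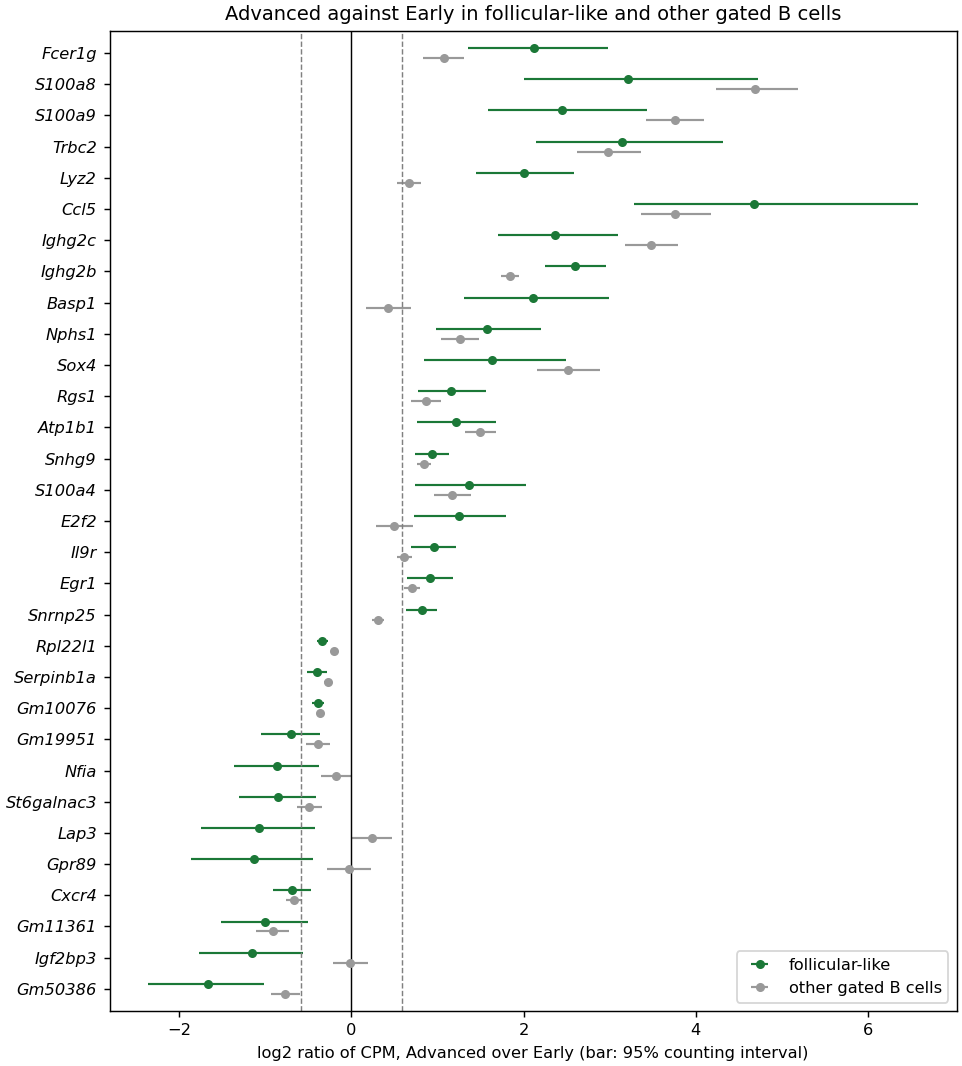
Log2 ratio of Advanced over Early (horizontal axis, 95% counting intervals) for the named genes (rows), in follicular-like cells (green) and other gated B cells (grey), with dashed lines at 1.5-fold. Rgs1, Egr1 and Atp1b1 lie to the right in both groups of cells and Cxcr4 lies to the left in both, at 0.620 in follicular-like and 0.628 in other gated B cells.

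Klf2 was at 1.16 (1.11 to 1.22) in Advanced over Early follicular-like cells, Ighd at 0.952 (0.914 to 0.992), Cd55 at 1.06 (0.994 to 1.13), Ccr7 at 1.13 (1.01 to 1.26) and Cd200 at 1.33 (1.17 to 1.51). Ighm was at 1.19 (1.16 to 1.23), Hes1 at 1.11 (0.977 to 1.26), Dtx1 at 0.738 (0.609 to 0.893) and Plac8 at 0.828 (0.777 to 0.883). None of them was counted, and the same ratios in other gated B cells were 1.19 for Klf2 and 0.812 for Dtx1.

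Among the counted genes, Rgs1, which dampens chemokine receptor signalling, had 32.5 CPM in Advanced against 14.5 CPM in Early follicular-like cells (ratio 2.24, 1.71 to 2.96). Egr1, an immediate early transcription factor, had 63.7 CPM in Advanced against 33.8 CPM in Early follicular-like cells (ratio 1.88, 1.57 to 2.27). Both were also higher in Advanced other gated B cells, at ratios of 1.82 and 1.62. In a list of dissociation stress genes, 9 of 12 with enough UMIs were above 1 in follicular-like cells, with a median of 0.04 on the log2 scale. Over all genes 66.4% were above 1. In other gated B cells the list had 9 of 12 above 1 and a median of 0.06. The part of tissue digestion in the ratios of Rgs1 and Egr1 was not tested. Atp1b1, a subunit of the sodium pump, had 25.6 CPM in Advanced against 11.0 CPM in Early follicular-like cells (ratio 2.32, 1.70 to 3.20), Sox4 had 10.3 CPM in Advanced against 3.31 CPM in Early follicular-like cells (ratio 3.11, 1.80 to 5.62), and Nphs1, the nephrin gene, had 17.6 CPM in Advanced against 5.88 CPM in Early follicular-like cells (ratio 2.99, 1.98 to 4.61), with ratios of 2.82, 5.71 and 2.39 in other gated B cells. Il9r, the receptor for IL-9, had 65.2 CPM in Advanced against 33.6 CPM in Early follicular-like cells (ratio 1.94, 1.62 to 2.33), and the snoRNA host gene Snhg9 had 112 CPM in Advanced against 58.6 CPM in Early follicular-like cells (ratio 1.92, 1.67 to 2.20).

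For some genes the ratio was larger in follicular-like than in other gated B cells. Snrnp25, a protein of the minor spliceosome, had 131 CPM in Advanced against 74.6 CPM in Early follicular-like cells (ratio 1.76, 1.56 to 2.0) and a ratio of 1.24 in other gated B cells, so the ratio of the 2 ratios was 1.42 (1.24 to 1.62). E2f2, a cell cycle transcription factor, had 19.2 CPM in Advanced against 8.09 CPM in Early follicular-like cells (ratio 2.38, 1.66 to 3.47), with a ratio of ratios of 1.68 (1.15 to 2.46). Basp1 had 12.7 CPM in Advanced against 2.94 CPM in Early follicular-like cells (ratio 4.32, 2.48 to 7.98), but 27.9% of its Advanced UMIs came from 1 cell, and its ratio turned to 0.541 among cells with 7000 to 11000 UMIs. S100a4 had 14.2 CPM in Advanced against 5.51 CPM in Early follicular-like cells (ratio 2.57, 1.67 to 4.07). Basp1 and S100a4 are given for follicular-like cells alone, with no statement on how their ratios compare with those in other gated B cells.

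The only gene counted as lower in Advanced follicular-like cells was the predicted gene Gm50386, with 4.86 CPM in Advanced against 15.4 CPM in Early follicular-like cells (ratio 0.315, 0.194 to 0.493). Cxcr4, the receptor for CXCL12, had 52.7 CPM in Advanced against 84.9 CPM in Early follicular-like cells (ratio 0.620, 0.533 to 0.721), and the ratio was 0.628 in other gated B cells. Igf2bp3, an RNA-binding protein of fetal-type B cells, had 6.54 CPM in Advanced against 14.5 CPM in Early follicular-like cells (ratio 0.450, 0.293 to 0.678), against a ratio of 0.992 in other gated B cells. Serpinb1a, a protease inhibitor, had 190.3 CPM in Advanced against 252 CPM in Early follicular-like cells (ratio 0.756, 0.697 to 0.821), and Rpl22l1, a paralogue of a ribosomal protein, had 686 CPM in Advanced against 867 CPM in Early follicular-like cells (ratio 0.791, 0.758 to 0.826). The other lower genes named by the rule were Gm11361 at 0.498, Gpr89 at 0.456, Lap3 at 0.476, St6galnac3 at 0.554, Nfia at 0.548, Gm19951 at 0.614 and Gm10076 at 0.765.

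Transcripts of other cells made up much of the rest. Ccl5, a chemokine of T and natural killer cells, had 18.9 CPM in Advanced against 0.735 CPM in Early follicular-like cells (ratio 25.7, 9.72 to 96.0), Trbc2, a T cell receptor constant gene, 14.6 CPM in Advanced against 1.65 CPM in Early follicular-like cells (ratio 8.81, 4.41 to 19.98), S100a8 10.3 CPM in Advanced against 1.1 CPM in Early follicular-like cells (ratio 9.32, 4.02 to 26.5) and Lyz2 25.0 CPM in Advanced against 6.25 CPM in Early follicular-like cells (ratio 4.01, 2.73 to 6.02). With each cell thinned to 5000 UMIs, a Trbc2 UMI was found in 7.06% of Advanced and 0.605% of Early follicular-like cells and a Ccl5 UMI in 9.70% and 0.363%, while 97.7% of Advanced T cells held a Trbc2 UMI and 27.5% a Ccl5 UMI. S100a8, a neutrophil gene, was in 5.4% of Advanced follicular-like cells and 3.89% of Advanced T cells, which should both lack it. Of the Advanced Lyz2 UMIs, 30.6% came from 1 follicular-like cell.

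Ighg2b had 86.7 CPM in Advanced against 14.3 CPM in Early follicular-like cells (ratio 6.05, 4.75 to 7.79), and Ighg2c 20.9 CPM in Advanced against 4.04 CPM in Early follicular-like cells (ratio 5.17, 3.25 to 8.59). In cells thinned to 5000 UMIs, an Ighg2b UMI was found in 29.9% of Advanced and 5.93% of Early follicular-like cells, against 23.8% and 4.12% of T cells of the same libraries, which do not make IgG (unthinned, 40.4% and 7.87% of follicular-like cells against 41.9% and 5.15% of T cells, at median depths of 6761.5 and 6069 UMIs in follicular-like cells and 10178 and 8929 UMIs in T cells). For Ighg2c the thinned shares were 9.70% and 1.82% of follicular-like cells against 9.84% and 1.03% of T cells. Only 2 Advanced follicular-like cells and 1 Early one held 5 or more Ighg2b UMIs. The intervals of the 2 cell types overlapped for both genes in both libraries, which does not show that the shares were equal. They came closest to separate for Ighg2b in Advanced, at 26.6% to 33.4% of follicular-like cells against 20.9% to 26.9% of T cells, beside 30.6% of other gated B cells. Unthinned Ighg2b was at 86.7 CPM in Advanced and 14.3 CPM in Early follicular-like cells, against 56.1 and 5.56 CPM in T cells.

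By list, the 8 cell cycle genes with enough UMIs all had ratios above 1 in Advanced over Early follicular-like cells and a median of 0.30 on the log2 scale, and with TMM scaling 7 of 8 were above 1 with a median of 0.19. The median level of the 15 genes of the list was 11.6 CPM in Advanced and 9.01 CPM in Early follicular-like cells. Not all of the 8 thus reached 10 CPM in Early, and any that passed through Advanced alone could only be above 1. Over all genes 66.4% were above 1 with a median of 0.08, and in other gated B cells the same 8 genes were all above 1 with a median of 0.18. Stmn1, a microtubule regulator, was the one counted, with 21.7 CPM in Advanced against 10.3 CPM in Early follicular-like cells (ratio 2.11, 1.52 to 2.95), and 29.3% of its Advanced UMIs came from 1 cell. Of 21 ribosomal protein genes, 17 had intervals below 1 and 1 above 1, with a median of −0.09. With TMM scaling 20 had intervals below 1 and the median was −0.21, so they were lower in Advanced under both scalings by a small amount. Over all 6855 genes, 271 had intervals below 1, and 826 did with TMM scaling. In other gated B cells 18 of the 21 ribosomal protein genes had intervals below 1, with a median of −0.07. The 22 follicular genes had a median of 0.11, against 0.00 with TMM scaling, and the 16 homing genes 0.16, against 0.04, so for these lists the size of the difference follows the scaling. The 11 marginal zone genes with enough UMIs had a median of −0.16, with 4 of 11 above 1, and −0.27 with TMM scaling, with 2 of 11 above 1.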

How the data were processed

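The deposited values were counts, whole-number UMIs per gene and barcode for 32285 genes, made by the authors with Cell Ranger and neither normalised nor cleared of free RNA. The file headers give version 6.0.1, but 3.1 and 3.1.0 stand in the processing notes of the submitters, beside Seurat 4.0.3 and mm10. Which one made the matrices was not settled, and it can change the reads and barcodes counted. The Advanced library held 83148059 UMIs (median 7832 per barcode) and the Early library 67610110 UMIs (median 6639). Of the barcodes, 679 Advanced and 443 Early ones fell below the window of 5000 to 15000 UMIs and 1154 and 523 above it.

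UMIs were summed over the cells of a group and divided by the group's total to give CPM. The ratio of 2 groups was given an exact conditional 95% interval and a share of cells an exact Clopper-Pearson 95% interval, both of which cover counting error only. Genes at 0 in a group were set against a floor of 3 counts. No test was made, since the cells were chosen on their own UMIs and each stage was 1 pooled library, and the computation was tested on simulated data. There the stage rule counted 1 of 50 genes changed 1.5-fold, 35 of 50 changed 2-fold and 30 of 50 changed 0.5-fold. The simulated counts held counting error alone, so they do not cover UMIs that come mostly from 1 cell. The text names the 14 higher and 14 lower genes against other gated B cells and the 12 higher and 12 lower between stages whose interval end nearest to 1 lay farthest from 1, sets aside immunoglobulin genes and genes of other cell types, and always names a fixed set of receptor, homing and marginal zone genes. Some genes that this rule names are not reported here. The members, the 30 gene lists and the comparisons were chosen with earlier results of these data known. Alternatives changed the gate, the depth window, the weighting, the scaling (TMM in edgeR 4.0.16), the size rule and the cells with the highest Scrublet scores, 538 Advanced and 543 Early cells at a rate of 0.8% per 1000 barcodes. Gene positions were from GENCODE on GRCm38 and promoters from RefSeq on GRCm38.p6. Python 3.11.15, numpy 2.4.6, scipy 1.17.1, pandas 2.3.3, scanpy 1.11.5, matplotlib 3.10.9 and R 4.3.3 were used.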

Additional observations from a re-analysis of the deposited data

How the results depend on the processing

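The Advanced over Early ratio of the follicular-like share of gated B cells, 1.18, was 1.34 with a minimum of 5 Fcer2a UMIs and turned to 0.999 as a share of all cells in the window. The Ighd ratio over other gated B cells, 1.28 in Advanced and 1.35 in Early, was 1.36 in Advanced with up to 3 Cr2 UMIs and 1.35 with the gate on thinned cells, 1.35 in Advanced and 1.45 in Early among cells with 7000 to 11000 UMIs, and 1.22 and 1.29 with other gated B cells reweighted to the same depth. The 14 genes higher than in other gated B cells became 7 (5 shared) in the window of 7000 to 11000 UMIs, 8 (all 8 shared) with the reweighting, 62 at 1.1-fold and 2 at 1.5-fold. The 28 lower genes became 17 (16 shared) with a minimum of 5 Fcer2a UMIs, 9 at 50 CPM or more, 44 with no minimum, 71 at 1.1-fold and 14 at 1.5-fold. The 25 genes higher in Advanced became 86 (22 shared) without a window, 14 (all shared) with TMM scaling, 5 at 50 CPM or more, 103 with no minimum, 79 at 5/4-fold and 9 at 2-fold. The 1 gene lower in Advanced became 7 with a minimum of 5 Fcer2a UMIs, 0 with no Cr2 UMI allowed and 3 with up to 3, 4 in the narrow window, 2 with Early cells reweighted, 3 with totals without immunoglobulin, ribosomal and mitochondrial genes, 3 with TMM scaling, 2 without the top cell, 0 at 50 CPM or more, 10 with no minimum and 9 at 5/4-fold. Among single named genes, Basp1 between stages reversed to 0.541 in the narrow window. The cause of these changes was not tested. Counts within 1.5 times could still hold other genes: of the 25 genes higher in Advanced, 13 were shared with a minimum of 5 Fcer2a UMIs, 17 with no Cr2 UMI allowed, 15 with up to 3, 9 in the narrow window and 11 with the gate on thinned cells, and of the 14 higher than in other gated B cells, 10 were shared with a minimum of 2 Fcer2a UMIs or with no Cr2 UMI allowed.

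No paired analysis was possible because each stage had 1 pooled library. Genes under 10 CPM, differences under or near the fold used and rare cells among the 722 and 826 follicular-like cells could not be resolved at this depth.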

Other observations

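Of the 8 expressed genes in the list of responses to IL-4 and CD40, 0 were counted between follicular-like and other gated B cells, and 1 had intervals above 1 and 1 below 1 in both libraries. In Advanced 7 of 8 had ratios above 1, 3 of them with intervals above 1, and the median was 0.12 on the log2 scale, whereas in Early 4 of 8 were above 1 with a median of 0.01. Over all 6611 genes, 50.2% were above 1 in Advanced and 45.2% in Early, and 14 were counted as higher and 28 as lower. Of the same 6611, 265 had intervals above 1 and 245 below 1 in both libraries, so few counted genes are to be looked for in lists of this size. Traf1, an adaptor of TNF receptors, was the only one of the 8 below 1 in Advanced, at 0.776 in Advanced and 0.708 in Early. Of the 12 expressed interferon response genes 0 were counted, and 3 had intervals above 1 in both libraries, with Ifi27l2a at 1.31 (1.24 to 1.38) in Advanced and 1.27 (1.2 to 1.34) in Early. The rule itself limits the interferon-induced genes it sums. Of the 14 expressed activation genes 0 were counted, and 2 had intervals above 1 and 4 below 1 in both libraries. The 17 oxidative phosphorylation genes had 0 with intervals apart from 1 in the same direction in both libraries. S100a10, a partner of annexin A2, was at 1.28 in Advanced and 1.37 in Early, and Fcgrt, the neonatal Fc receptor, at 1.38 in Advanced and 1.58 in Early, and neither was counted.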
